A study of Mus musculus with 3 samples.

Results

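Fibroblast growth factor (Fgf) signalling is described here through 35 genes: 22 Fgf family ligands, 5 receptors and 8 feedback inhibitors of the Sprouty, Spred and Dusp families. The members are all rows of a deposited list of Sp9 chromatin peaks whose gene name equals 1 of these 35 symbols, which gave 58 of 19979 peaks. Sp9 is a zinc finger transcription factor of the Sp family, and the study asked how Sp8 and Sp9 act together in the development of olfactory bulb interneurons. Sp9-bound chromatin was recovered with a homemade antibody from olfactory bulbs of CD1 mice aged postnatal day 0 to 2, crosslinked for 10 min with 1% formaldehyde and broken into fragments of 200 to 1000 bp. The immunoprecipitation was made as 2 libraries, beside 1 library of input chromatin that saw no antibody, with no genotype or treatment named for any of them. All 3 came from whole bulbs, so neurons, glia and vessel cells contributed together, and a peak in few cells cannot be told apart from a weak peak in many.

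Secreted Fgfs bind receptor tyrosine kinases together with heparan sulphate. The active receptor signals through adaptor proteins, Ras and the MAP kinases, and the same signal induces inhibitors that dampen it. In the forebrain the pathway is known for patterning the anterior telencephalon, for keeping neural progenitors dividing and for the formation of the olfactory bulb. The Fgf11 to Fgf14 proteins are related in sequence but stay inside the cell, where they bind voltage-gated sodium channels.

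Each peak of the list has a position in the mouse build mm9, a score and the name of 1 gene, and it is called a linked peak of that gene. Distances to the gene are absent, so linked peaks may lie in a promoter, exon or intron or between genes. The score is the authors' own, and the sources used here do not say how the immunoprecipitations entered it. The list gives 1 value per peak and none per library. No peak therefore has an error between replicates, and the depth of the libraries is unknown. The scores serve only to rank peaks within the list, and the ratios of scores given below do not measure relative binding. They ran from 80.01 to 3139.09 with a median of 210.06. A peak with a score of at least that median is called an above-median peak.

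Of the 35 genes, 26 had a linked peak (74.3%), against 53.2% of the 21900 protein-coding genes of a RefSeq gene table (55.4% where older names in the list are also matched through synonyms). An above-median peak was found for 23 members (65.7%), against 34.1% of coding genes, and a peak at or above the upper quartile of the scores, 354, for 14 (40%), against 18.5%. The receptors were linked without exception, 5 of 5, followed by 6 of 8 feedback genes (75%) and 15 of 22 ligands (68.2%). The linked genes had a median highest score of 519 for receptors, 363 for feedback genes and 333 for ligands, against 274 over all linked coding genes. Genes are not replicates and the genes were chosen with earlier results of these data known, so these counts were set beside the background without a test. They do not show that the 3 roles differ from each other.

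**Figure D1:**
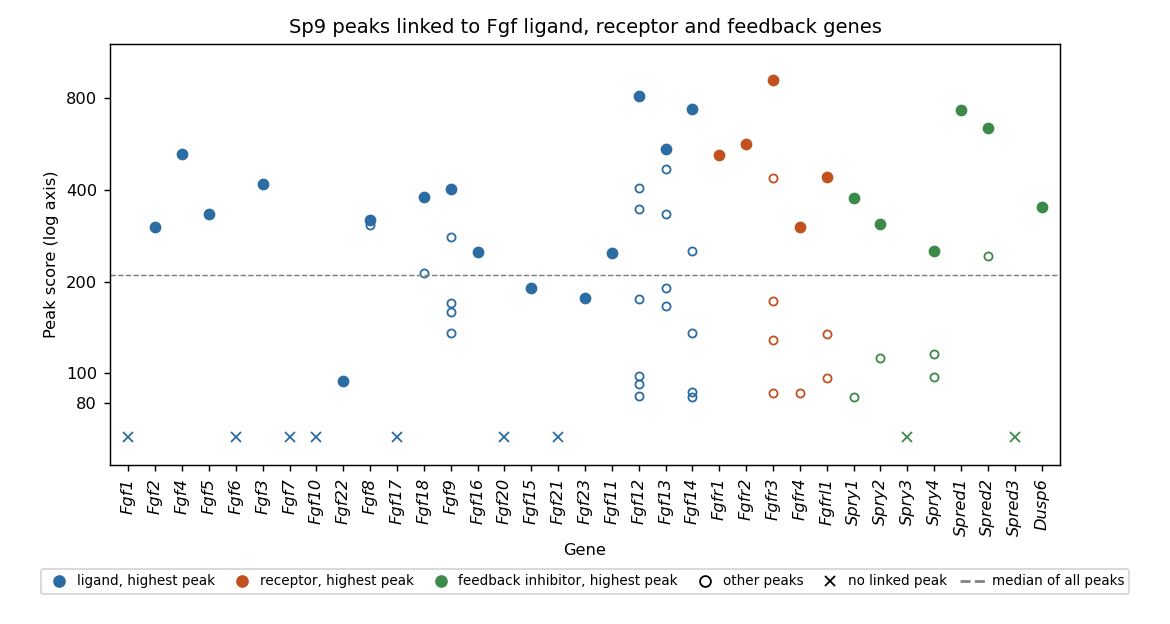
Score of every Sp9 peak (vertical, log axis) linked to each of the 35 genes (horizontal); filled circles are a gene's highest peak, open circles its other peaks, crosses genes without a linked peak, and the dashed line the median of all 19979 peaks, 210.06. The highest values belong to Fgfr3 (915.89), Fgf12 (812.78), Fgf14 (737.12) and Spred1 (728.3), and 9 genes have no peak.

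Sp factors recognise GC-rich DNA, for which the GC box GGGCGG is the best known form. The letters before the gene starts were therefore examined, in windows of 250 bases before an annotated start (RefSeq, GRCm38.p6, a later build than that of the peaks). Positions were not converted between the 2 builds, so whether a peak covers a window was not determined. Windows were at hand for 26 of the 35 genes, 33 windows in all because Fgfr3, Fgf12 and Fgf13 have several starts. The windows of 7 genes are shown because they hold the contrast between letters and peaks: the receptor with the highest score, a receptor with a high score and no GC box, a secreted and an intracellular ligand with a high score, the feedback gene with the highest score, and genes without a linked peak that have several GC boxes (Spred3) or none (Fgf7). They run 5′ to 3′ on the gene's strand and end at the base before the start. Capitals mark GGGCGG or, for the other strand, CCGCCC.
Fgfr3 (chr5:33721474-33721723, plus strand): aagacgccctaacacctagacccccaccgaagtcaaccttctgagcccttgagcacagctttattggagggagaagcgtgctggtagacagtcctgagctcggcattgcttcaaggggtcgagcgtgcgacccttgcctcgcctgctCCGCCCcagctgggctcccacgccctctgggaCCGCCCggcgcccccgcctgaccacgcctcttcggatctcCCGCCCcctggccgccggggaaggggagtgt
Fgfr2 (chr7:130266809-130267058, minus strand): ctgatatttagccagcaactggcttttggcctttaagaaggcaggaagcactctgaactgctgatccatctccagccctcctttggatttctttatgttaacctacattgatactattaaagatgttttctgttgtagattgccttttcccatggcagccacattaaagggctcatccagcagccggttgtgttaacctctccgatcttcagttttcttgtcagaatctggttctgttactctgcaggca
Fgf4 (chr7:144861136-144861385, plus strand): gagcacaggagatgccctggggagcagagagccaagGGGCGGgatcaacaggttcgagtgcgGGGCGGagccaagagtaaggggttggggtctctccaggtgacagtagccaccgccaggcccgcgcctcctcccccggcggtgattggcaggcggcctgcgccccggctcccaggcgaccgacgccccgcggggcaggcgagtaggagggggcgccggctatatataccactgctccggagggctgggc
Fgf13 (chrX:59134437-59134686, minus strand): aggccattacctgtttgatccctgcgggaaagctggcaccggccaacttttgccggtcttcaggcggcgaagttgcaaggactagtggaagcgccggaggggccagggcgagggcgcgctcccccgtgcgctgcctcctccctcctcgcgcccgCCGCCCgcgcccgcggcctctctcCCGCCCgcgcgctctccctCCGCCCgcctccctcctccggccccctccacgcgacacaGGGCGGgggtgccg
Spred1 (chr2:117120821-117121070, plus strand): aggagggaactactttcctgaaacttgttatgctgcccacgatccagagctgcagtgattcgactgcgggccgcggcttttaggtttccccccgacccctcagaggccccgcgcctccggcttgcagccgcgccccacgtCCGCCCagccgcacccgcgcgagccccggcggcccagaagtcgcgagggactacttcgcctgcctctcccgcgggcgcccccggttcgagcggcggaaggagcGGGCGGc
Spred3 (chr7:29168648-29168897, minus strand): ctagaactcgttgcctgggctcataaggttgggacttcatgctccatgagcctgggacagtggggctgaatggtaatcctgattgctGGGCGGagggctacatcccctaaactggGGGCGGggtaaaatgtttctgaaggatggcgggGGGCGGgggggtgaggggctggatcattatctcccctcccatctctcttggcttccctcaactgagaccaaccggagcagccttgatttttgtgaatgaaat
Fgf7 (chr2:126034408-126034657, plus strand): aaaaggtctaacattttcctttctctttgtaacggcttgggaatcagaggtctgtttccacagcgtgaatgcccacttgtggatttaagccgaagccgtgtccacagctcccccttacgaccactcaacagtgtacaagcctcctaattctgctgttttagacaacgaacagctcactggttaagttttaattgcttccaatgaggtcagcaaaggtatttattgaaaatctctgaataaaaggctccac

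In the Fgfr3 window shown, the first bases of the 3 GC boxes lay 103, 71 and 31 bases before the start. The other Fgfr3 window, from 33722056 to 33722305, held 2 overlapping boxes, at 87 and 82 bases. In Spred1 the first bases of 2 boxes lay 110 and 7 bases before the start. Fgf4 had 2 boxes farther out, at 214 and 188 bases. Spred3 had 3 boxes, at 163, 135 and 102 bases, and no linked peak, whereas Fgfr2 had none in its window and a peak scoring 563.31. Among the 33 windows, 22 held at least 1 GC box (66.7%), against 42.6% of 21263 windows of coding genes of the same length, searched on both strands with overlapping matches counted. For linked members the count was 18 of 28 windows (64.3%, against 57.4% of the windows of all linked coding genes), and for members without a peak it was 4 of 5 windows (80%, against 24.2% of the windows of coding genes without a peak). With 5 windows the last share moves by a large step with each gene. Over all coding genes the median share of G and C in the windows was 60.8% with and 49.6% without a linked peak, higher where GC boxes were more frequent. Among the members it was 63% with and 55.6% without a linked peak, the opposite order to their GC box shares. The part of base composition in the counts was not tested. The 4 windows of Fgf13 held 4, 0, 3 and 0 boxes, with a share of G and C of 74.4%, 40.4%, 74.8% and 45.6% in that order. Another short GC-rich motif, CACCC on either strand, which can overlap a GC box by a few letters, was in 14 of the 33 windows (42.4%, against 54.2% of all coding windows). A match of letters is a description and does not make a binding site.

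The receptors carried the highest score of the whole set and had 12 peaks in all. Fgfr3, a receptor of neural progenitors and astrocytes, had 5 peaks on chromosome 5 with scores of 128.9, 437.73, 172.72, 915.89 and 86.54 in the order of their positions. The highest spanned 34064194 to 34066750, was 2556 bp wide, the widest of the 58 peaks, and scored above 98.3% of all peaks in the list. By its highest peak Fgfr3 ranked above 97.7% of linked coding genes. The next peak of Fgfr3, from 34037638 to 34038726, scored above 83.4% of all peaks, and the 3 others, from 34034943 to 34035633, from 34047611 to 34048450 and from 34074998 to 34075709, were below the median of the list. All 5 lay within 40.8 kb, and no peak with another name lay between them.

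Fgfr2 and Fgfr1, the receptors best known for telencephalon growth and olfactory bulb formation, each had a single peak. That of Fgfr2 scored 563.31 on chromosome 7 from 137408209 to 137410216. That of Fgfr1 scored 519.07 on chromosome 8 from 26629100 to 26630213. These scores were above 91.3% and 89% of the list. Fgfrl1, a receptor without the intracellular kinase domain, had 3 peaks on chromosome 5: one of 440.54 from 109122819 to 109124531, one of 135.15 beginning 17 bp after it (109124548 to 109125558), and one of 96.85 a further 6.59 kb away (109132146 to 109132955). Fgfr4 had the lowest score of the receptors, 302.82 on chromosome 13 from 55253744 to 55254768, and a weak peak of 86.28 located 6.15 kb from it, from 55260914 to 55261745. Every receptor thus had 1 peak above the list's median, and Fgfr3 had 2. With dense runs (5 or more peaks within 50 kb) left out, Fgfr3 and Fgfrl1 lost all their peaks and 3 of 5 receptors were linked. The run of Fgfr3 was made of its own 5 peaks.

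Of the feedback inhibitors, Spred1 and Spred2, membrane-bound proteins that hold back Ras signalling, had the highest scores. The single peak of Spred1 scored 728.3 and ran on chromosome 2 from 116946139 to 116947795, above 96.1% of all peaks. Spred2 had a peak of 636.5 on chromosome 11 from 19824211 to 19825946 and another of 241.74 from 19819861 to 19820924, so both were above the median. Spred3 was listed with no peak.

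The Sprouty genes, whose products are induced by Fgf and block the path from receptor to MAP kinase, had lower scores. Spry1 had peaks of 375.25 on chromosome 3 from 37538577 to 37540231 and of 83.79 from 37541669 to 37542299. Spry2 had peaks of 308.45 on chromosome 14 from 106294999 to 106296825 and of 112.08 from 106294096 to 106294621. Spry4 had 3 peaks on chromosome 18, of 251.39 from 38760041 to 38761638, of 115.94 from 38790919 to 38791754 and of 97.34 from 38749237 to 38750040. In each of these 3 genes 1 peak was above the list's median and the rest were below it, with ratios of the highest to the next score of 4.48, 2.75 and 2.17. Dusp6, a phosphatase that switches off the MAP kinase ERK, had a single peak of 349.79 on chromosome 10 from 98723765 to 98724955, whose nearest peak with another name lay 152 kb away. Spry3 had no linked peak.

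Among the ligands, the intracellular Fgf11 to Fgf14 group differed in its numbers from the secreted ones. All 4 of its genes had an above-median peak, and together they had 18 of the 35 ligand peaks, or 4.5 peaks per gene. With dense runs left out, Fgf11 lost its only peak. The 18 secreted ligands had 17 peaks in 11 genes (61.1%), and 8 had an above-median peak (44.4%). Both shares of the secreted ligands lay nearer to the 53.2% and 34.1% of all coding genes than those of the receptors did. Peaks per gene were 0.944 for secreted ligands and 0.787 for all coding genes.

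Fgf12, Fgf13 and Fgf14 are long neuronal genes that make several isoforms from separate starts, and their peaks were spread widely. Fgf12 had 7 peaks over 389 kb of chromosome 16, with scores of 84.29, 92.48, 812.78, 98.03, 404.59, 175.77 and 344.71 in the order of their positions. The highest, from 28293094 to 28295612, was 2518 bp wide and scored above 97.4% of all peaks. The other above-median peaks of Fgf12 ran from 28445973 to 28447241 and from 28564188 to 28565330. Those below the median ran from 28176580 to 28177207, from 28191048 to 28191930, from 28445014 to 28445727 and from 28500350 to 28501365. Fgf13 had 5 peaks over 655 kb of chromosome X, with scores of 166.27, 466.48, 333.64, 190.08 and 543.52 in the order of their positions. Its 2 highest peaks, from 57040566 to 57042034 and from 56537044 to 56538273, were close in score, with a ratio of 1.17. The third above-median peak of Fgf13 ran from 56719172 to 56719806, and the 2 below the median from 56386988 to 56387979 and from 56819809 to 56821056. Fgf14 had 5 peaks over 588 kb of chromosome 14, with scores of 87.16, 135.89, 251.81, 737.12 and 84.03, and 1 of them stood out: the peak from 125053443 to 125054820 scored 2.93 times the next, which ran from 124813944 to 124815537. The other 3 peaks of Fgf14, from 124591332 to 124592239, from 124732855 to 124733725 and from 125178936 to 125179539, were below the median. Fgf11, the short gene of this group, had 1 peak of 248.37 on chromosome 11 from 69614470 to 69615385, and a peak named G630025P09Rik (121.36) began 620 bp after it.

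**Figure D2:**
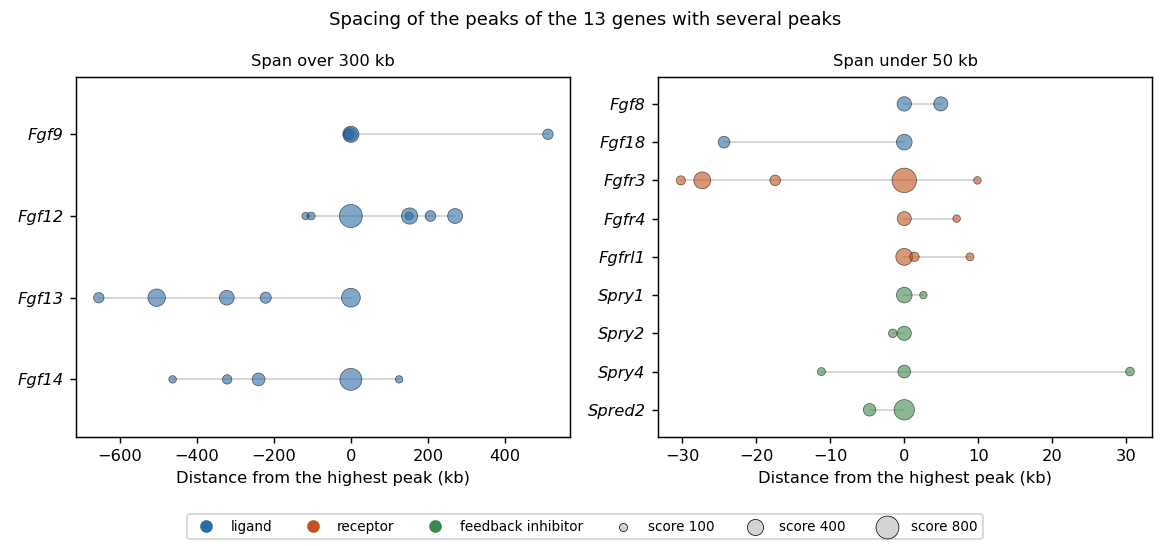
Peaks of the 13 genes with 2 or more peaks, placed by the distance of their centres from the gene's highest peak (kb, horizontal; positive toward higher mm9 positions), 1 row per gene, with circle area proportional to the score; the left panel holds genes with a span over 300 kb and the right panel the others. Fgf12, Fgf13 and Fgf14 have peaks along 389, 655 and 588 kb, whereas the 5 peaks of Fgfr3 lie within 40.8 kb.

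Several peaks per gene were common in the set. Of the 26 linked genes 13 had 2 or more peaks (50%), against 28.1% of linked coding genes. Counted over all genes, 14.9% of the coding genes had 2 or more peaks and 1.23% had 5 or more, the number reached here by Fgf9, Fgf12, Fgf13, Fgf14 and Fgfr3. Some of these peaks lay very close, with gaps of 60 and 81 bp within Fgf9 and 378 bp between the peaks of Spry2. If peaks within 1 kb were joined, Fgf9 would no longer reach 5, and Spry2 would have a single peak. These shares of coding genes were not recomputed with joined peaks. The median span from the first to the last peak was 26 kb for the 13 genes and 34.4 kb for the 3251 coding genes with 2 or more peaks on 1 chromosome. A span over 300 kb was found for 4 of the 13, and for 11.4% of those 3251. Longer genes offer more room for a peak, and no mm9 gene lengths were used here.

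Of the secreted ligands with roles in the forebrain, Fgf8, which patterns the anterior telencephalon, had 2 peaks of nearly equal score on chromosome 19, 318.43 from 45810955 to 45812304 and 306.68 from 45815743 to 45817386. Its subfamily member Fgf18 had peaks of 378.3 from 33046358 to 33048546 and 212.87 from 33022583 to 33023617 on chromosome 11, and Fgf17, the remaining member, had none. All 4 peaks of this subfamily were above the list's median. Fgf2, a mitogen of neural stem cells, had 1 peak of 300.75 on chromosome 3 from 37247217 to 37248180, while Fgf1 of the same subfamily had none. The Fgf2 peak lay 290 kb from the highest peak of Spry1.

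Fgf9, a ligand made by neurons, had 5 peaks on chromosome 14. The first 4 lay close together, with scores of 158.5, 135.7, 279.19 and 402.66 in the order of their positions. Of these, the 2 above-median peaks ran from 58693592 to 58694621 and from 58694702 to 58695849, only 81 bp apart, and the others from 58689559 to 58690629 and from 58690689 to 58691491. The fifth, of 169.87 from 59206127 to 59206708, lay 510 kb farther on and alone gives Fgf9 its span of 517 kb. Fgf16 of the same subfamily had 1 peak of 250.82 on chromosome X from 102959517 to 102960764, and Fgf20 had none.

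Fgf3, Fgf4 and Fgf15 are neighbours on chromosome 7, and each had 1 peak. The Fgf3 peak scored 418.66 from 152024071 to 152026041, the Fgf4 peak 522.91 from 152046885 to 152048369 and the Fgf15 peak 190.95 from 152081455 to 152082828. The gap was 20.8 kb between the first pair and 33.1 kb between the second. Scores of this cluster thus lay above the median for Fgf3 and Fgf4, ligands of early embryos, and below it for Fgf15. Fgf5, a regulator of the hair cycle, had 1 peak of 333.38 on chromosome 5 from 98682642 to 98683768.

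Ranked by their highest peak, the lowest of the linked genes were ligands. Fgf22, a ligand that organises synapses, had 1 peak of 94.31, and the nearest peak with another name was that of Rnf126, with a score of 512.52 at a distance of 6.93 kb. The endocrine ligands Fgf15 and Fgf23, the second a hormone of phosphate balance, had 190.95 and 177.19. These 3 genes were the only linked members without an above-median peak.

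No peak carried the name of Fgf1, Fgf6, Fgf7, Fgf10, Fgf17, Fgf20, Fgf21, Spry3 or Spred3. Since each peak has 1 name, a peak near 1 of these genes may be listed under a neighbour. Of the 9 genes, 6 had a directly neighbouring coding gene with a linked peak, by the gene order of the RefSeq table (66.7%, near the 60.6% of all 10248 coding genes without a peak). The highest such score flanked Spred3: its neighbour Ggn had a peak of 640.01 on chromosome 7 from 29955855 to 29958295, and Fam98c on the other side had 2 peaks with a highest score of 341.1. Fgf10, a ligand of early cortical progenitors, lies between Mrps30 (377.83) and Nnt (201.27). The neighbours of Fgf7 (Dtwd1, 193.69), Fgf21 (Bcat2, 112) and Fgf17 (Dmtn, 111.59) had peaks below the list's median, and Fgf6 lies next to Fgf23. For Fgf1, Fgf20 and Spry3 neither neighbour had a linked peak. Since the depth is unknown, a gene without a listed peak cannot be called unbound.

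The 58 peaks measured 525 to 2556 bp with a median of 1066 bp, against 986 bp over all peaks. The highest peak of each linked gene had a median width of 1422 bp, against 1078 bp for linked coding genes. Those of 2000 bp or more were 4 of the 58 (6.9%), the highest peaks of Fgfr3, Fgf12, Fgf18 and Fgfr2, against 3.63% of all peaks. A peak with another name lay within 10 kb of 3 of the 58 peaks (5.17%, against 11.6% of the 19880 peaks on assembled chromosomes), namely those of Fgf11, Fgf22 and the second of Fgf8.

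**Figure D3:**
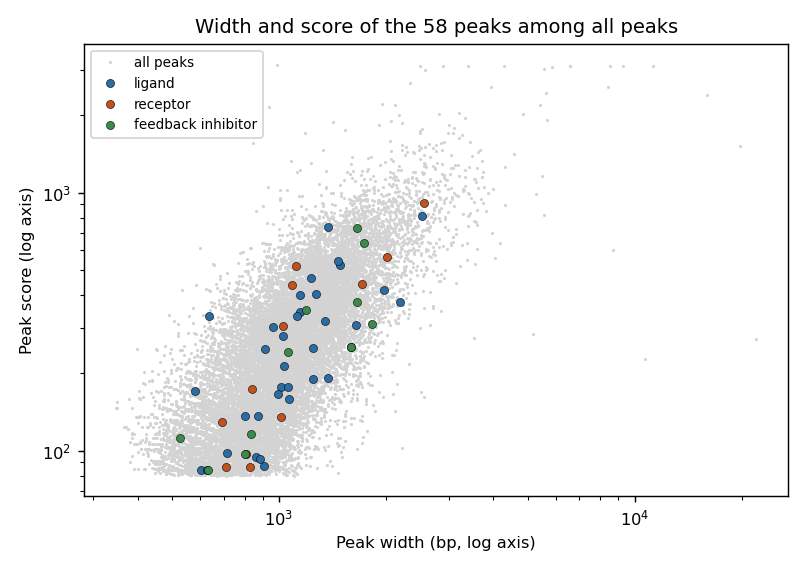
Width (bp, log axis) against score (log axis) of the 58 peaks, coloured by the role of the linked gene, over all 19979 peaks of the list in grey. Peaks of the 3 roles lie within the cloud of all peaks, and the widest of them, that of Fgfr3 with 2556 bp, also has the highest score.

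The other genes of the pathway were linked often. Of 46 such genes, 40 had a linked peak (87%) and 35 an above-median peak (76.1%), against the 53.2% and 34.1% of coding genes. Between the receptor and Ras, 9 of 10 adaptor genes were linked, led by Gab1 (540.61) and the Ras activator Sos1 (539.16). Of the Ras and MAP kinase genes 11 of 13 were linked. Co-receptors and extracellular partners had 10 of 13 linked, led by the heparan sulphate enzyme Hs2st1 (550.92) and the glypican Gpc1 (501.34). All 3 Ets factors that carry the signal to the genome were linked, with scores of 383.69 for Etv5, above the upper quartile of the list, 230.16 for Etv4 and 92.19 for Etv1. The further inhibitors had 7 of 7 linked, led by Rasa1, which turns Ras off (934.65), and Il17rd, a membrane inhibitor of Fgf receptors (648.49). The number of peaks per gene was 1.66 for the 35 genes and 1.46 for these 46.

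Other signalling families showed how far the order of roles is shared. Wnt receptors had a linked peak in 11 of 12 genes and an above-median peak in 10, and receptors of bone morphogenetic proteins (BMP) and TGF-beta in 10 of 10 and in 9. The median highest score was 539 for Wnt receptors and 538 for BMP and TGF-beta receptors, beside 519 for Fgf receptors. Ligands were linked in 17 of 19 Wnt genes and 14 of 17 BMP and TGF-beta genes, beside 15 of 22 for Fgf, with median highest scores of 339, 364 and 333. Feedback genes were linked in 10 of 12 Wnt and 10 of 10 BMP and TGF-beta genes, beside 6 of 8 for Fgf, with median highest scores of 370, 218 and 363. In all 3 families the receptors had a higher median than the ligands, whereas the feedback genes of the BMP and TGF-beta family lay below its ligands and those of the other families above theirs. The share of linked ligands was lowest for Fgf, at 68.2% against 89.5% and 82.4%, a difference of a few genes that was not tested. The Fgf count includes the intracellular Fgf11 to Fgf14. Of the 18 secreted Fgf ligands alone, 11 were linked (61.1%), with a median highest score of 318.

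**Figure D4:**
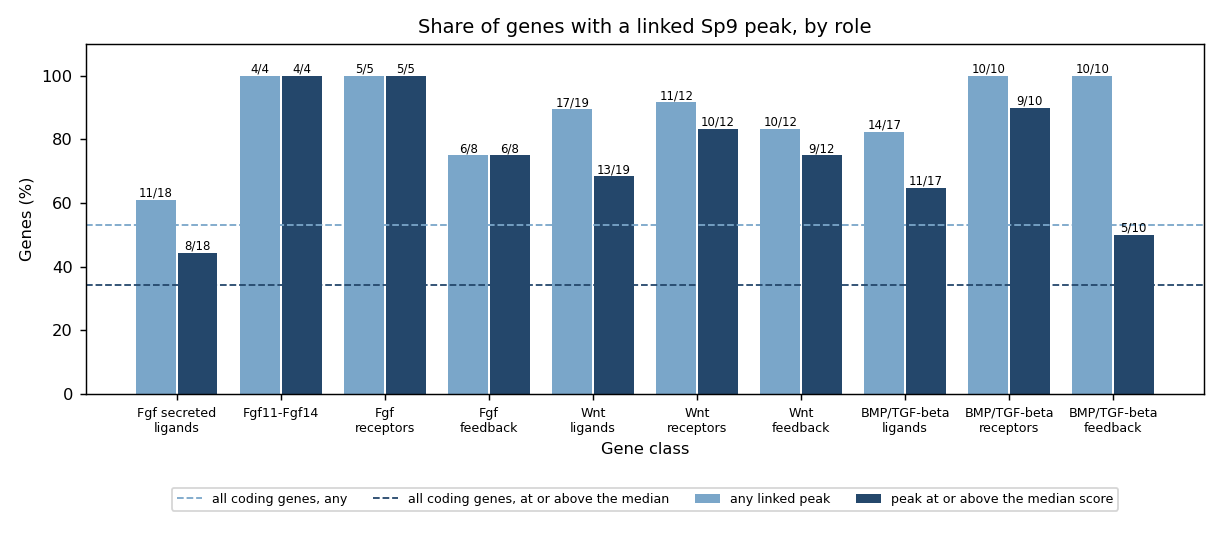
Percent of genes (vertical, from 0) with any linked Sp9 peak (light bars) and with an above-median peak (dark bars), for the roles of the Fgf, Wnt and BMP/TGF-beta families, with counts above the bars; dashed lines give all coding genes, 53.2% and 34.1%. The secreted Fgf ligands, 11 of 18 and 8 of 18, lie nearest to the lines for any peak, and the Fgf receptors reach 5 of 5 in both.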

How the data were processed

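The single file analysed is the authors' deposited list of peaks shared by the Sp9 immunoprecipitations; its score is the authors' value per peak, with the formula and the rule for sharing not given in the sources used here. Its positions are in mm9. Bowtie2 2.2.4 and MACS 1.4.2 are named, without their roles, in the submitters' processing notes. The list holds no expression values, so the tissue label could not be checked against markers. Names were matched exactly to current symbols of coding genes in a RefSeq table (GRCm38.p6), used for names, gene order and sequences. A synonym match, an alternative, raises the coding genes with a linked peak from 53.2% to 55.4%.

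The members and all gene lists were chosen with earlier results of these data known. Every member is accounted for. Members with an above-median peak are given with the positions and scores of their peaks, and of the other pathway genes the 2 highest in each role are named, except some that are not reported here; Etv1 was named after its value was seen. Scripts (Python 3.11.15, pandas 2.3.3) were tested on simulated lists. No test was made, since the list holds no value per library.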

Additional observations from a re-analysis of the deposited data

How the results depend on the processing

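Of 30 recomputed values, 24 stayed within 1.5 times the value as deposited and 6 did not. With above-median peaks only, the members' peaks fell to 33 from 58, and the whole list to 9993 from 19979. With scores at or above the upper quartile only, 7 ligands, 3 feedback genes and 25 of the 46 other pathway genes remained, against 18.5% of coding genes. At that cut 17 member peaks remained, and 4995 peaks of the whole list. Without dense runs (5 or more peaks within 50 kb), unplaced sequences and ribosomal RNA names, 3 receptors and 12 ligands were left, and coding genes fell to 47.7%. The receptors lost were Fgfr3 and Fgfrl1, which lie in such runs, that of Fgfr3 being made of its own 5 peaks. The ligands lost were Fgf11, Fgf15 and Fgf22. Merging peaks of 1 name within 1 kb gave 53 member peaks, with Fgf9 below 5 peaks and Spry2 at a single peak. Synonyms changed no member count. By construction, stricter lists hold fewer peaks, and merging changes neither the counts of linked genes nor a gene's highest score. Some of the 24 values could therefore not move, and their number does not measure how firm the results are. Leaving out a library and another overlap were not run, because the list has 1 score per peak. No paired analysis was possible because the list holds no value per library and the input has 1 library. Where a gene is said to have no peak, the depth of the libraries, which is unknown, sets how far that holds.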
